A study of Mus musculus with 12 samples.

Results

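The Ptprc block is the stretch of mouse chromosome 1 from 139900000 to 140200000 (mm9) that holds Ptprc, the gene of CD45. Its members were the FoxP3 peaks whose summit lay in this window of 300 kb, 227 of the 53228 peaks on standard chromosomes in 6 peak lists. They were chosen by position, in a stretch picked because earlier results of these data showed it dense in peaks, so the number of peaks here is a description and carries no test. FoxP3 was mapped by chromatin immunoprecipitation and sequencing (ChIP-seq) with a rabbit polyclonal antibody. The cells were freshly isolated CD4+ hCD2+ Treg cells from lymph nodes and spleen of C57BL/6J mice. One group carried FoxP3 with the substitution A384T and a human CD2 reporter (FoxP3A384T:hCD2), and the other wild-type FoxP3 with the same reporter (FoxP3WT:hCD2, WT). No treatment was given, the ages of the animals are not in the labels, and each genotype had 3 ChIP libraries and 3 input libraries. Whether the 3 libraries of a genotype stand for different mice is not given in the labels. The p-values here thus reflect variation among these libraries alone, and that variation may be technical.

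CD45 is the receptor tyrosine phosphatase found on nearly all nucleated blood cells. In T cells it removes the inhibitory phosphate of the Src-family kinases Lck and Fyn and so sets the threshold of T cell receptor signalling. Its extracellular part varies through alternative splicing of exons near the 5′ end of the gene, which gives the CD45R isoforms used to tell naive from activated T cells. FoxP3 is the forkhead transcription factor that defines Treg cells, and much of its binding lies in enhancers that are already open in T cells and are also used by ETS and RUNX factors.

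Ptprc lies on the minus strand, so in mm9 its 5′ end is the upper end of its span, stated here as about 139960000 to 140070000 and rounded to 10 kb. In the RefSeq gene order of GRCm38.p6 its neighbours on the 3′ side are the non-coding gene Gm34353 and then Mir181b-1 and Mir181a-1. On the 5′ side lie the pseudogene Gm18667 and Atp6v1g3, which encodes a subunit of the proton pump V-ATPase. These positions are of another build and were not joined to the peaks. Summits could therefore not be assigned to exons or introns, and one within a few kb of 140070000 could not be called inside or outside the gene. One of the regions found in all 6 libraries, from 140071340 to 140072073, lay closest to that end, with a median summit 1849.5 bp beyond the rounded value. Because a FoxP3 peak lay there in every library, the promoter of the gene is shown: 250 bases before and 50 after the first of 2 RefSeq start sites (GRCm38.p6, chr1:138175256-138175555, minus strand). Capitals mark matches to the forkhead-like letters TGTTTNC and to the ETS core ACTTCCT, on either strand.
Ptprc promoter: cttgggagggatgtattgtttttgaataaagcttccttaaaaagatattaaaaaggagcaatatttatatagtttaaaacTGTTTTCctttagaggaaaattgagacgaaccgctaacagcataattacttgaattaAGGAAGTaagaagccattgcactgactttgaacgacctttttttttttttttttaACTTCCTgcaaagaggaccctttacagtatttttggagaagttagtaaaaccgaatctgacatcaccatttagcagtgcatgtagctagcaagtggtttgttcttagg
The stricter forkhead letters TGTTTAC had no match in these bases on either strand, where 3.65% of 32851 RefSeq promoters of this length had one. The single match to TGTTTNC, of which TGTTTAC is a special case, began 170 bases before the start site, and 20.5% of promoters held one. The matches to ACTTCCT began 113 and 58 bases before it, and 9.35% of promoters held at least 1. The same window around the second RefSeq start site held 0 matches to TGTTTNC and 1 to ACTTCCT, so the forkhead-like match depends on the start site taken. A match describes letters in this window only, and whether FoxP3 contacts any of them was not tested.

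All 6 lists had peaks in the block, from 8 to 105 per library. A384T replicates 1, 2 and 3 had 35, 21 and 8 peaks, a mean of 21.3 ± 13.5 (SD, n = 3), and WT replicates 1, 2 and 3 had 105, 13 and 45, a mean of 54.3 ± 46.7 (SD, n = 3). WT replicate 1 thus supplied the most and A384T replicate 3 the fewest, and the genotypes overlapped. The mean of A384T was 0.393 of that of WT, and 0.736 of it without WT replicate 1. Within the 2 replicate 1 libraries, sequenced with 51 bp tags, the counts were 35 for A384T and 105 for WT. The share of redundant tags was also highest in these, 30% in A384T replicate 1 and 39% in WT replicate 1 against 18 to 21% in the others, and its part in the counts was not tested. Within the 49 bp libraries the means were 14.5 ± 9.19 for A384T and 29 ± 22.6 for WT (SD, n = 2 each).

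**Figure D1:**
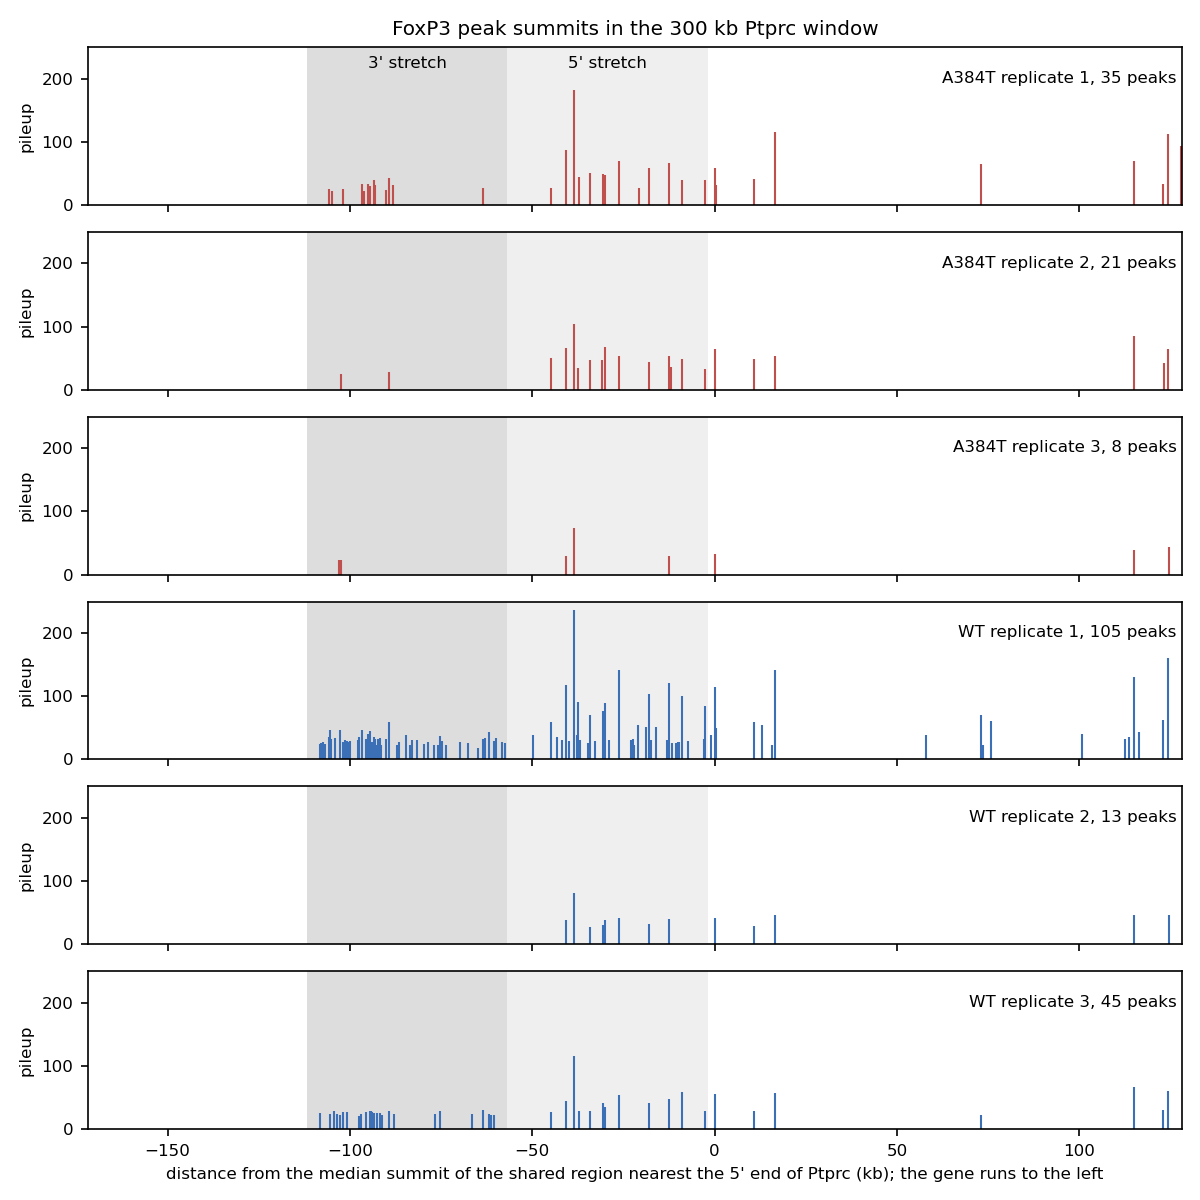
Each line is the summit of one FoxP3 peak in the 300 kb window, with its height the pileup in that library's own scale (fragments at the summit) and its place the distance in kb from the median summit of the shared region nearest the 5′ end of Ptprc. Panels run from A384T replicates 1 to 3 to WT replicates 1 to 3, dark grey is the 3′ stretch and light grey the 5′ stretch of the stated gene span; low lines are packed in the 3′ stretch in WT replicates 1 and 3, and the tallest line of the 5′ stretch stands at the same place in all panels.

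The lists held from 1746 to 20723 peaks, so the counts were also read as shares. The block held 0.193, 0.315 and 0.390% of the lists of A384T replicates 1, 2 and 3, against 0.507, 0.745 and 1.15% of those of WT replicates 1, 2 and 3. By this measure every WT list lay above every A384T list, with means of 0.300 ± 0.0996% in A384T and 0.801 ± 0.327% in WT (SD, n = 3 each). The exact 95% binomial intervals, which cover counting error only, ran from 0.134 to 0.268% in A384T replicate 1, from 0.195 to 0.482% in A384T replicate 2 and from 0.169 to 0.767% in A384T replicate 3. The intervals of the WT libraries ran from 0.415 to 0.613% in replicate 1, from 0.397 to 1.27% in replicate 2 and from 0.842 to 1.54% in replicate 3, so the intervals of A384T replicates 2 and 3 overlapped those of WT replicates 1 and 2. When only the top 1746 peaks of each list by -log10 q were kept, as many as the shortest list has, the block held 4, 5 and 5 peaks in A384T replicates 1, 2 and 3, against 9, 13 and 9 in WT replicates 1, 2 and 3. These groups again did not overlap, with means of 4.67 ± 0.577 for A384T and 10.3 ± 2.31 for WT (SD, n = 3 each). For neither measure is the share of other windows that separate the genotypes in this way given here. The block was also chosen with earlier results of these data known, so nothing is read from the separation.

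Among windows of 300 kb tiled over the standard chromosomes the block stood near the top in every library. It was exceeded by 6, 4 and 7 windows in A384T replicates 1, 2 and 3, among 3999, 2468 and 1293 windows with any peak. It was exceeded by 1, 3 and 2 windows in WT replicates 1, 2 and 3, among 3882, 926 and 1561. The windows whose counts over the 6 libraries were most like it, by the summed absolute difference, lay on chromosome 2 from 78900000, chromosome 19 from 11400000 and chromosome 9 from 32400000, with summed differences of 88, 90 and 92. Of these, the window on chromosome 2 had 25, 11 and 0 peaks in A384T replicates 1, 2 and 3, against 70, 4 and 29 in WT replicates 1, 2 and 3, and so also had more in WT replicates 1 and 3 than in any A384T library. The window on chromosome 19 had 44, 49 and 19 in A384T replicates 1, 2 and 3, against 88, 36 and 43 in WT replicates 1, 2 and 3. That on chromosome 9 had 32, 20 and 6 in A384T replicates 1, 2 and 3, against 53, 9 and 15 in WT replicates 1, 2 and 3. The edges of the block were clean on the 3′ side, where the nearest summit of any list lay at least 85831 bp before the window. On the other side 1 region straddled the edge: only A384T replicate 1 had its summit inside, at 140199771, and the other 5 libraries had theirs 86 to 963 bp outside. That peak is counted among the 227 and is in none of the regions below.

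The peaks fell into stretches of different kind. With the stated span of Ptprc cut at its midpoint, 140015000, into a 3′ and a 5′ stretch, the 3′ stretch held 13, 2 and 2 peaks in A384T replicates 1, 2 and 3, against 52, 0 and 26 in WT replicates 1, 2 and 3. WT replicates 1 and 3 were the highest and WT replicate 2, with none, the lowest. In the 5′ stretch there were 13, 13 and 3 peaks in A384T replicates 1, 2 and 3, against 35, 8 and 12 in WT replicates 1, 2 and 3. Beyond the rounded 5′ end there were 9, 6 and 3 in A384T replicates 1, 2 and 3, against 18, 5 and 7 in WT replicates 1, 2 and 3. In both of these stretches the genotypes overlapped, and no list had a summit between the start of the window and the stated 3′ end. The 3′ stretch made up 23.9 ± 13.8% of the block peaks of A384T libraries and 35.8 ± 31.2% of those of WT libraries (SD, n = 3 each), a difference of -11.9 percentage points within the spread between replicates.

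**Figure D2:**
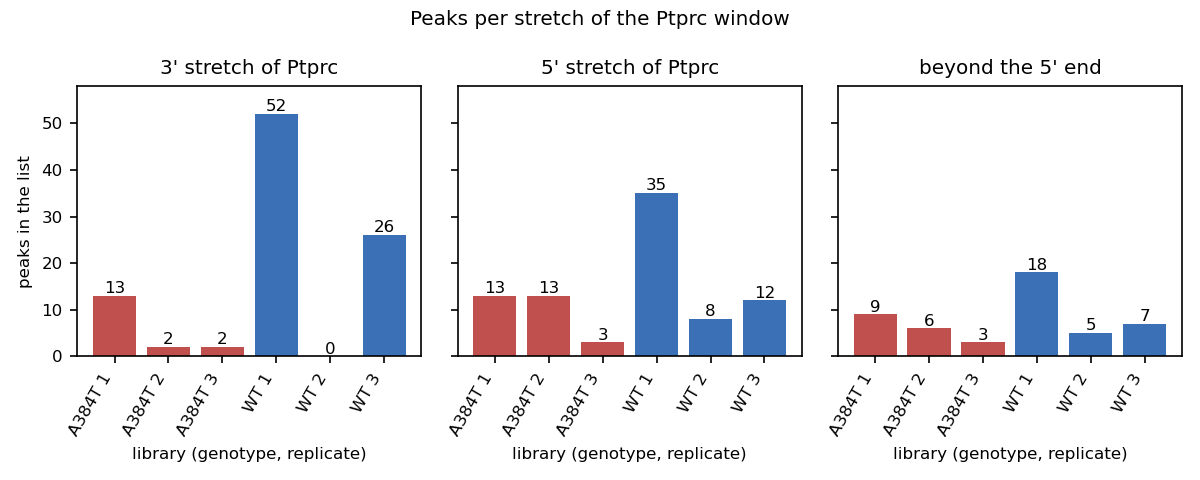
Bars give the number of listed peaks (y axis) in each library (x axis, genotype and replicate) for the 3′ stretch of Ptprc, its 5′ stretch and the stretch beyond its rounded 5′ end, with the count above each bar. The 3′ stretch has 52 and 26 peaks in WT replicates 1 and 3 and none in WT replicate 2, against 13, 2 and 2 in A384T.

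The peaks of the 3′ stretch were low and narrow, and in the libraries with many of them closely spaced. Pileup is the number of overlapping fragments at the summit. In A384T replicate 2 and WT replicate 2 it is scaled down, because their ChIP tags outnumber those of the control, and is mostly not a whole number. It was 22 to 43 in A384T replicate 1, 25.56 to 28.4 in A384T replicate 2 and 23 for both peaks of A384T replicate 3. It was 18 to 60 in WT replicate 1 and 20 to 31 in WT replicate 3. Only 1 peak, in WT replicate 1, exceeded the median pileup of its own list, and those medians were 51, 43.55 and 41 in A384T replicates 1, 2 and 3 and 48, 40.46 and 38 in WT replicates 1, 2 and 3. The -log10 q values sat at a median percentile of 19.8, 6.68 and 8.02 of the list in A384T replicates 1, 2 and 3, against 30.4 and 14.5 in WT replicates 1 and 3. None of the 3′ peaks of any library was among the 1746 strongest of its list. WT replicate 2 is itself only 1746 peaks long, and its lowest pileup anywhere in the block was 27.27.

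**Figure D3:**
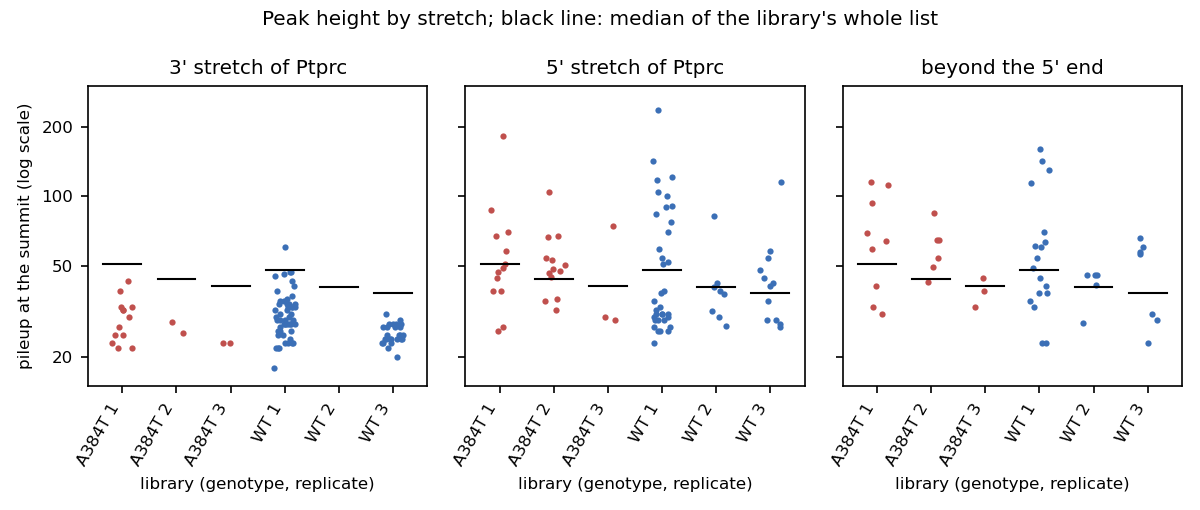
Points are single peaks of the block, placed by library (x axis, genotype and replicate) and by pileup at the summit on a log scale (y axis), and the black line is the median pileup of that library's whole list. In the 3′ stretch all points but 1 lie below the line, while in the 5′ stretch points reach 182 in A384T replicate 1 and 236 in WT replicate 1.

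In WT replicate 1 the 3′ peaks had a median width of 231.5 bp, and a median of 563 bp separated each summit from its nearest neighbour, against 3841 bp over its whole list. In WT replicate 3 the width was 165.5 bp and the spacing 752.5 bp, against 12502 bp over its whole list. A384T replicate 1 had a width of 197 bp and a spacing of 835 bp, against 7564 bp over its list. The 2 peaks of A384T replicate 2 lay 13180 bp apart, against a list median of 12666 bp, and those of A384T replicate 3 lay 527 bp apart. In A384T replicate 1 and WT replicates 1 and 3 the 3′ peaks ran in rows, over 42.2 kb in A384T replicate 1, 50.9 kb in WT replicate 1 and 47.8 kb in WT replicate 3.

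The background used in calling a peak was computed from pileup and fold enrichment. This background was at the lowest value of the list for 7 of 13, 0 of 2 and 2 of 2 of the 3′ peaks in A384T replicates 1, 2 and 3. It was at that value for 25 of 52 in WT replicate 1 and 19 of 26 in WT replicate 3. Over whole lists this share was 5.82, 10.3 and 9.07% in A384T replicates 1, 2 and 3 and 10.6, 10.4 and 18.1% in WT replicates 1, 2 and 3. In the 5′ stretch it was 0 of 13, 0 of 13 and 0 of 3 in A384T replicates 1, 2 and 3, against 5 of 35, 0 of 8 and 1 of 12 in WT replicates 1, 2 and 3. The listed peaks of the 3′ stretch were therefore often low pileups over the lowest background value of their list. Many peaks of a list shared that value, so it may be a floor set for the whole list. It is not shown to be the control level at each peak. Whether this background, or the length of the list, has a part in the uneven layout was not tested.

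Joined across libraries, the peaks of the block formed 111 regions. Of these, 35 had a peak in both genotypes, or 31.5%, where 56.0% of all 24765 regions of the series did. A further 12 had a peak in at least 2 WT libraries and in no A384T library, where 0.872% of all regions did. The reverse class, at least 2 A384T libraries and no WT library, held 0 regions of the block, where 0.763% of all regions belonged to it. The remaining 64 were seen in 1 library, with 58 of them in WT replicate 1, 5 in WT replicate 3 and 1 in A384T replicate 1. The cluster of WT regions here was known when the block was chosen, so nothing is read from these shares.

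All of the 12 WT regions lay in the 3′ stretch, and all had a peak in WT replicates 1 and 3 and none in WT replicate 2. From the 3′ side, 9 of them crowded between 139963385 and 139980606. These were 139963385 to 139963613, 139966230 to 139966471, 139967268 to 139968517, 139970969 to 139971205, 139974248 to 139974548, 139977650 to 139977828, 139979161 to 139979371, 139980013 to 139980327 and 139980370 to 139980606. The other 3 lay at 139996466 to 139996933, 140009737 to 140010121 and 140011241 to 140011419. Their pileups were 22 to 46 (median 31.5) in WT replicate 1 and 20 to 28 (median 25) in WT replicate 3, and their summits in these libraries were 7 to 92 bp apart, with a median of 24.5 bp. The class rests on those libraries by construction: without WT replicate 1 or without WT replicate 3 it held 0 regions, and without A384T replicate 1 it held 18. At -log10 q of at least 20 it held 4 of the 12. With lists of equal length it held none of the 12, and the 4 regions then in the class lay outside the 3′ stretch.

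Where A384T libraries had peaks in the 3′ stretch, they mostly coincided with peaks of WT replicate 1 or 3, the libraries with most peaks there. Of the 13 summits of A384T replicate 1, 12 fell inside a peak of WT replicate 1 and 6 inside one of WT replicate 3. Of the same 13, 1 fell inside a peak of A384T replicate 2 and 0 inside one of A384T replicate 3, which have 2 peaks each in this stretch. Both summits of A384T replicate 2 and both of A384T replicate 3 fell inside a peak of WT replicate 3. In the other direction, 10 of the 52 summits of WT replicate 1 and 4 of the 26 of WT replicate 3 fell inside a peak of A384T replicate 1. WT replicate 1 held 20 of the 26 summits of WT replicate 3. The one 3′ region with a peak in all 3 A384T libraries, from 139969252 to 139970144, also had one in WT replicates 1 and 3. The only region seen in A384T alone, from 139983451 to 139983620, had a pileup of 32 in replicate 1.

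Outside the 3′ stretch, 22 of 53 regions were found in both genotypes, and the other 31 in WT replicate 1 only. The A384T summits lay mostly inside WT peaks, while many summits of WT replicate 1 had no A384T peak. In WT replicate 3, 12, 12 and 3 of its 12 summits in the 5′ stretch fell inside a peak of A384T replicates 1, 2 and 3. Beyond the 5′ end 7, 6 and 3 of its 7 summits did. All 13 peaks of WT replicate 2 had their summit inside a peak of A384T replicates 1 and 2 and of WT replicates 1 and 3. Over the whole block, 34 of 35, 19 of 21 and 7 of 8 summits of A384T replicates 1, 2 and 3 fell inside a peak of WT replicate 1. In the other direction, 31, 19 and 6 of the 105 summits of WT replicate 1 fell inside a peak of A384T replicates 1, 2 and 3, and so did 13, 12 and 3 of its 35 summits in the 5′ stretch. There were 20 regions with a peak in at least 4 libraries, or 18.0% of the block regions, where 14.0% of all regions of the series belonged to this class. Of the 20, 6 had a peak in all 6 libraries, or 5.41% of the block regions, where 3.88% of all regions did. Neither share is far from that of the series, and nothing is read from them. In the 5′ stretch or beyond the 5′ end lay 18 of the 20, and 8 of the 20 had a peak in 5 libraries. The library that lacked a peak was A384T replicate 3 in 7 of these 8, and WT replicate 2 in the 3′ region from 139969252 named above. The 7 ran from 140037292 to 140037981, 140040787 to 140041337, 140041547 to 140042475, 140045085 to 140046197 and 140053597 to 140054045 in the 5′ stretch, and from 140082519 to 140082982 and 140088068 to 140089044 beyond it. The 6 found in 4 libraries each lacked a peak in A384T replicate 3 and WT replicate 2, which have the shortest lists. They ran from 139982412 to 139982740, 140026824 to 140027152, 140034310 to 140034698, 140062691 to 140063417, 140069094 to 140069511 and 140194790 to 140195072.

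The 6 regions of all libraries ran from 140030754 to 140031460, 140032241 to 140033471 and 140059165 to 140059733 in the 5′ stretch, and from 140071340 to 140072073, 140186413 to 140187090 and 140196028 to 140196702 beyond the rounded 5′ end. The second of them, at -38.7 kb from the region at the 5′ end (negative values lie towards the 3′ end), was the strongest peak of the block by -log10 q in 5 of the 6 libraries. Its pileup was 182, 104.14 and 74 in A384T replicates 1, 2 and 3, against 236, 81.8 and 115 in WT replicates 1, 2 and 3. The authors' fold enrichment there was 32.8, 17.5 and 8.40 in A384T replicates 1, 2 and 3, against 38.5, 16.6 and 30.8 in WT replicates 1, 2 and 3. These overlap between genotypes, and both measures describe a peak within its own list and not a level shared by libraries. In A384T replicate 2 the region from 140186413 had the higher -log10 q, 98.9 against 92.1, although its pileup of 84.26 was lower.

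The order of these 6 regions among the 962 regions found in all 6 libraries was not itself used to choose the block. The block was, however, picked for its listed peaks, with the cluster of WT regions known. Listing and order both rest on the q-value, so the test below is not independent of that choice. The shortest lists also limit which regions are in that set. Averaged over the 6, their percentile by -log10 q was 33.9, 35.5 and 33.5 in A384T replicates 1, 2 and 3, against 54.3, 54.4 and 51.4 in WT replicates 1, 2 and 3. The genotypes did not overlap, with means of 34.3 ± 1.07 in A384T and 53.4 ± 1.68 in WT (SD, n = 3 each) and a difference of -19.0 percentile points. That is larger than the spread between replicates, but 3 libraries against 3 cannot give a p below 0.1: the two-sided exact permutation test gave p = 0.1, or 0.3 adjusted over the 3 tests on the block. That test ignored the replicate numbers. An exact permutation within same-numbered pairs gave p = 0.25, the smallest it allows. Leaving out 1 library at a time gave differences of -20.5 to -11.7. The smallest was without A384T replicate 3, when 13 regions of the block were shared by the other 5 libraries. Each A384T value lay below each WT value at both tag lengths, but only 1 library of each genotype, replicate 1, had 51 bp tags. A part of tag length was not tested.

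**Figure D4:**
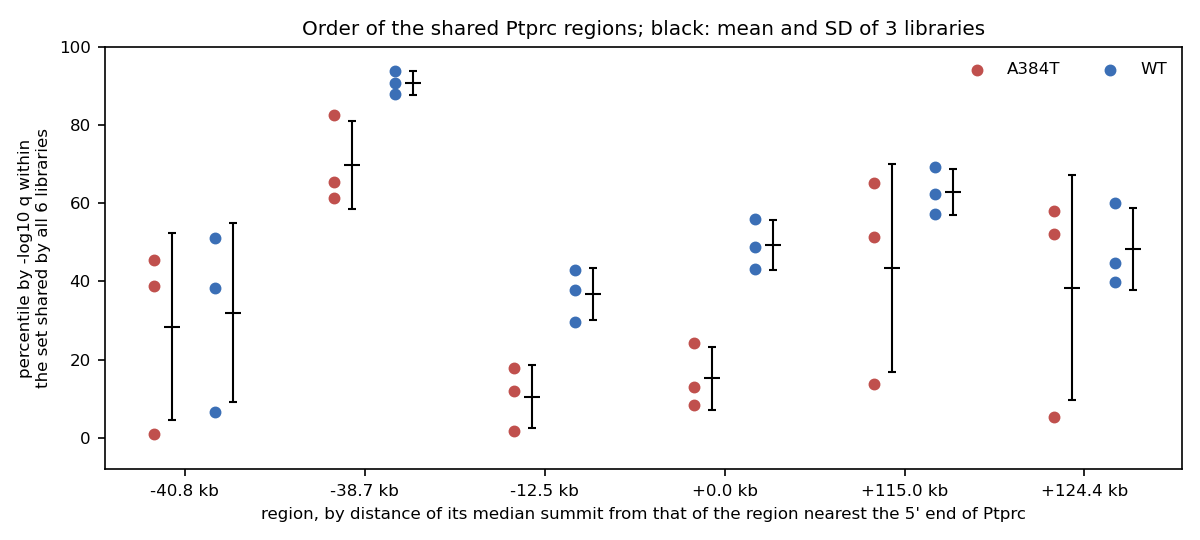
For each of the 6 regions of the block found in all libraries, points give the percentile by -log10 q within the 962 such regions (y axis) in single libraries, A384T left and WT right, with black marks for the mean and SD of 3; the x axis is the distance of the region from the one nearest the 5′ end of Ptprc. At -38.7, -12.5 and 0 kb all 3 A384T points lie below all 3 WT points.

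Region by region, 3 of the 6 had ranks that did not overlap between genotypes, where 24.8% of the 962 did in either direction. All 3 ranked lower in every A384T library, where 13.3% of the 962 did. The region at the 5′ end, from 140071340, was at 8.52, 24.2 and 12.99 in A384T replicates 1, 2 and 3, against 48.8, 43.2 and 55.98 in WT replicates 1, 2 and 3. The region from 140059165 was at 1.82, 12.0 and 17.9 in A384T replicates 1, 2 and 3, against 37.9, 42.9 and 29.6 in WT replicates 1, 2 and 3. The strongest region, from 140032241, was at 82.5, 61.3 and 65.5 in A384T replicates 1, 2 and 3, against 90.7, 87.9 and 93.9 in WT replicates 1, 2 and 3. Of these it was the one that stayed in the upper part of the shared set in every library. The other 3 regions overlapped: from 140030754 the means were 28.5 ± 23.9 in A384T and 32.0 ± 22.9 in WT, from 140186413 they were 43.4 ± 26.7 in A384T and 62.9 ± 5.95 in WT, and from 140196028 they were 38.5 ± 28.9 in A384T and 48.2 ± 10.5 in WT (SD, n = 3 each). For a single region, too, the exact permutation test cannot give a p below 0.1 in this design, so none is called.

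For the position and the width of the shared peaks, replicates of one genotype differed as much as the genotypes did. Summits of the same region in 2 libraries were on average 42.2 bp apart within a genotype (34.5 to 51.3 bp over 6 pairs) and 39.96 bp apart between genotypes (20.5 to 58.3 bp over 9 pairs). Within minus between was 2.20 bp (one-sided exact permutation test over 10 splits, p = 0.6, adjusted 0.7). Over the 6 regions the summits of all libraries fell within 61 bp of each other at the 5′ end region and within 135 bp at the most scattered, that from 140059165. The geometric mean width was 452, 448 and 218 bp in A384T replicates 1, 2 and 3, against 740.4, 256 and 430 bp in WT replicates 1, 2 and 3. The difference of -0.29 on the log2 scale was not resolved (two-sided exact permutation test, p = 0.7, adjusted 0.7), and it was 0.063 without A384T replicate 3 and 0.092 without WT replicate 1. A p that misses the threshold does not show that the genotypes are alike in these measures.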

How the data were processed

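Per the labels, fixation took 30 min in 1% formaldehyde, with 4 µg of antibody per precipitation. Bowtie2, MACS2 and mm9 appear in the submitters' processing notes. Per the file headers, the authors called peaks with MACS 2.1.0.20140616 on each ChIP library against its own control (6 different controls, named by code), at a q-value cutoff of 1e-10, keeping 1 tag at each position and scaling the larger set towards the smaller. The deposited pileup (a signal), fold enrichment (a ratio) and -log10 p and q values are therefore on each library's own scale, and absence from a list means only that nothing there passed the cutoff. Unique ChIP tags numbered 17520951 to 25386770 per library, and lists held 1746 to 20723 peaks on standard chromosomes, the longest in each genotype being that of the library with fewest unique tags. Input libraries were not analysed here.

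Peaks that shared 1 bp or more across libraries formed one region, which belonged to the block if its median summit did. The background was (pileup + 1) / fold - 1, which gave back the deposited p-value within 0.05 (log10) for at least 99.7% of peaks, and it was called lowest within 0.02 of the list's minimum. Differences between genotypes were tested by exact permutation of the libraries and adjusted by Benjamini-Hochberg over 3 tests. Same-numbered libraries deviated together in the order of the 962 shared regions for replicates 1 and 3 (correlations 0.435 and 0.374), and less so for replicate 2 (0.123). The main tests did not use this pairing and permuted all libraries freely. Pairs by replicate number entered only the alternative with a replicate block. Replicate 1 of both genotypes also shares its tag length. Promoters are from RefSeq. The scripts were tested on simulated lists. Named regions were those in at least 4 libraries, or in at least 2 of a genotype and absent from the other; others were named after their values were seen. The members, the stretches of the gene and the motifs were chosen with earlier results of these data known. Tools were Python 3.11.15 with scipy 1.17.1, pandas 2.3.3, numpy 2.4.6 and matplotlib 3.10.9.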

Additional observations from a re-analysis of the deposited data

How the results depend on the processing

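Of 92 alternatives to 8 results, 4 reversed the sign and 8 moved a ratio or count by over 1.5 times, or to or from 0. The other 80 did neither, though some cannot alter a value (the replicate block changes the p only). Order, width and summit distance were checked for sign alone. The share in the 3′ stretch was called moved only beyond the WT SD of 31.2 points, so its 11 alternatives all counted among the 80. Sizes varied among the 80: the order ran from -21.2 to -11.7 percentile points, summit distance from 0.40 to 5.89 bp and the WT class from 11 to 18 regions. The difference in the share of the 3′ stretch was 0 with lists of equal length, which hold no peak there. Lists matched in length in pairs and all values for the share in the 3′ stretch were chosen after the data were seen. Leaving out each library in turn gave -20.5 to -11.7 percentile points for the order of the shared regions, -0.74 to 0.092 for log2 width, -1.84 to 4.60 bp for summit distance, 0.267 to 0.736 for the ratio of block peaks, 0 to 18 for the WT class, 0 to 1 for the A384T class, 22 to 35 regions in both genotypes, and -29.8 to -0.873 points for the share in the 3′ stretch. The log2 width turned to 0.063 without A384T replicate 3 and to 0.092 without WT replicate 1. Summit distance turned to -1.84 bp without A384T replicate 3 and to -3.04 bp within the stated gene span, where 3 shared regions were left. The WT class held 4 of its 12 regions with -log10 q of at least 20. With lists of equal length it held 4 regions, none of them among the 12, and regions in both genotypes numbered 7; shorter lists hold fewer regions by construction. In the exact permutation test the replicate block gave p = 0.25 for the order, the smallest it allows, 0.75 for width and 0.5 for summit distance, and changed no call. A peak list shows no binding below its cutoff, so a stretch without peaks is not shown to be unbound.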
